A study of Sus scrofa with 6 samples.

Results

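Genes of the creatine kinase and adenylate energy buffer were compared between *longissimus dorsi* muscle (LDM), a glycolytic muscle of the back, and *psoas major* muscle (PMM), an oxidative muscle of the loin. Probes were taken whose gene name in the array files was CKM, CKB, CKMT2, AK1 or AMPD1, or whose description held one of these symbols or spoke of creatine kinase, adenylate kinase or AMP deaminase. This gave 12 of the 43603 probes, and 11 of them stood for 6 genes, of 3551 genes with a name on the array. These genes were CKM, CKMT2, AMPD1, AK3, AK4 and AK5. The remaining probe, A_72_P327953, carried no gene name, only a description that refers to a bacterial adenylate kinase, and was not well above background on any array, so it was not tested. No probe was matched to CKB or AK1, which were not analysed here. As 38397 probes carry no gene name, this says nothing about the expression of either gene.

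The samples came from 3 unrelated female Landrace pigs. They were fed according to growth phase from weaning at 28 days and slaughtered at 210 days of age after 24 h without feed. All 6 samples share this sex, breed, age and fasting, and neither muscle received any treatment. RNA of each muscle was labelled with Cy3 and hybridized to 3 single-colour Agilent arrays per muscle. Each signal below is log2 of the spot intensity minus log2 of the 75th percentile of its array, so 0 is the level of that percentile and 1 unit is a doubling in the same probe. Signals of different probes are not comparable as levels, because probes differ in how brightly they bind.

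Creatine kinases move a phosphate group between ATP and creatine, and so keep ATP nearly constant while a fibre contracts. CKM is the cytosolic muscle form, bound in part to the sarcomere, whereas CKMT2 sits between the mitochondrial membranes and charges creatine with ATP that has just left the matrix. CKB is the cytosolic form best known from brain. Adenylate kinases convert a pair of ADP molecules into ATP and AMP. AK1 does this in the cytosol of muscle, AK3 and AK4 lie in the mitochondrial matrix and AK5 is a cytosolic form best known from brain. AMPD1, the muscle AMP deaminase, removes the AMP by turning it into IMP, the first step of the purine nucleotide cycle. It is a textbook feature of fast glycolytic fibres that AMP deaminase is abundant, and of oxidative fibres that mitochondrial creatine kinase is.

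The following probe sequences carry the comparison of the cytosolic kinase, the mitochondrial kinase and the deaminase, and are printed 5′ to 3′ as the array files give them, all for the pig. For CKM, 30 bases are shown of the 51 consecutive bases that its probes A_72_P176246 and A_72_P227527 share, with the hexamer AATAAA in capitals. For CKMT2, the first 30 bases are shown of its brighter probe and all 60 of its dimmer one.
CKM, stretch held by both probes: ctccactcaaagcaacaAATAAAagcaatg
CKMT2, A_72_P224432, first bases: gtctgctggatgacagacataaagcaattt
CKMT2, A_72_P294310: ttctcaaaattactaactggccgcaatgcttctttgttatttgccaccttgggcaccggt
AMPD1, A_72_P208487: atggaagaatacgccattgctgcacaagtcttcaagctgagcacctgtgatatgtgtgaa
The hexamer AATAAA, searched on the strand of the probe, was found in 12.11% of all 43603 probes. Because the CKM probes overlap, they are 2 readings of 1 stretch of RNA and not independent measurements. The CKMT2 probes share at most 5 consecutive bases and read different stretches. Positions in the genome or the transcript were not determined here.

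The tissue matched its label. All 9 skeletal muscle fibre markers, ACTA1 and DES among them, were well above background on all 6 arrays, although the label on RNA extraction names adipose tissue. Of these 9, 5 had higher and 4 had lower means in PMM, with a median log2 difference of 0.04. With normexp background correction 2 were higher and 7 lower. MYH2 (0.49) and TNNT3 (0.40) of this list were higher in PMM for all 3 replicate numbers. Slow fibre markers leaned to PMM: all 5 of those with a probe (of 7 listed) had higher means there, with a median log2 difference of 0.61, and each was higher in PMM for all 3 replicate numbers. MB, the oxygen store myoglobin, differed most at 1.47, and TNNI1, the slow inhibitory troponin, differed by 1.03. Neither passed the test. Adipocyte markers had lower means in PMM for 4 of 5 genes (median -0.63; 3 of 5 and -0.07 with normexp background correction). Of these, PLIN1 passed the filter only through LDM, where its mean was higher, so it does not count towards that direction. The exception, FABP4 (0.10), was higher in PMM for all 3 numbers, but with quantile normalization all 5 were lower. Fibroblast markers had lower means for 3 of 3 (median -0.44), while endothelial markers had higher means for 4 of 4 (median 0.28). The leukocyte markers PTPRC and CD163 differed by 0.06 and 0.10, and CNN1 of smooth muscle by 0.52. Summed signals of the adipocyte list ran from 72.4 to 230 times the 75th percentile in LDM and from 61.6 to 244 times in PMM. For the slow fibre list the sums were 1489 to 2144 times in LDM and 2102 to 3275 times in PMM. None of these markers was called, and their part in the results below was not tested. In whole muscle, fewer cells of a type and less RNA per cell cannot be told apart.

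CKM gave nearly equal signals in the muscles. Probe A_72_P176246 had the highest mean of all probes on the array, with no saturated spot on any array. Listed by replicate number, as are all signals below, its log2 signal was 10.1, 9.39 and 9.98 in LDM. The PMM arrays read 10.33, 9.65 and 9.91. The muscles overlapped throughout, and replicate 2 was the lowest in both. The log2 difference of PMM minus LDM was 0.14 (SE 0.34, n = 3 per muscle; limma adjusted p = 1.0), a 1.1-fold difference with a 95% interval from 0.645-fold to 1.89-fold. The overlapping probe A_72_P227527 read 9.77, 9.21 and 9.82 in LDM and 9.997, 9.36 and 9.82 in PMM, a log2 difference of 0.13. Without LDM replicate 2 or without PMM replicate 1 the sign of these small differences turned for both probes (lowest value -0.07), and normexp background correction turned it too (-0.12 and -0.04), so that no direction is given for CKM.

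CKMT2 leaned to PMM with both of its probes. On the brighter probe, A_72_P224432, the log2 signal was 8.36, 7.54 and 7.64 in LDM. In PMM it was 8.95, 8.23 and 7.97. The highest LDM array lay above the lower PMM arrays, so the muscles overlapped, but each PMM array was above the LDM array of its own number, by 0.59, 0.69 and 0.33. The mean log2 difference was 0.54 (SE 0.38, n = 3 per muscle), a 1.45-fold higher mean with a 95% interval from 0.791-fold to 2.66-fold. It did not pass limma (adjusted p = 1.0), nor with the replicate number as a block (adjusted p = 0.37). By exact permutation of the 6 arrays p was 0.3, two-sided, where 3 against 3 arrays cannot go below 0.1. The dimmer probe, A_72_P294310, ran from 1.64 to 3.50 in LDM and from 2.57 to 4.08 in PMM. Its log2 difference was 0.63 (SE 0.58; limma adjusted p = 1.0), with each PMM array above its LDM counterpart by 0.38 to 0.94. The size rested on single arrays: it ranged from 0.25 without PMM replicate 1 to 0.79 without LDM replicate 1 on the brighter probe, and from 0.14 to 1.15 without the same arrays on the dimmer one. A single sign over all 3 numbers was common on this array, at 35.8% of the probes with 6 values, in either direction.

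**Figure D1:**
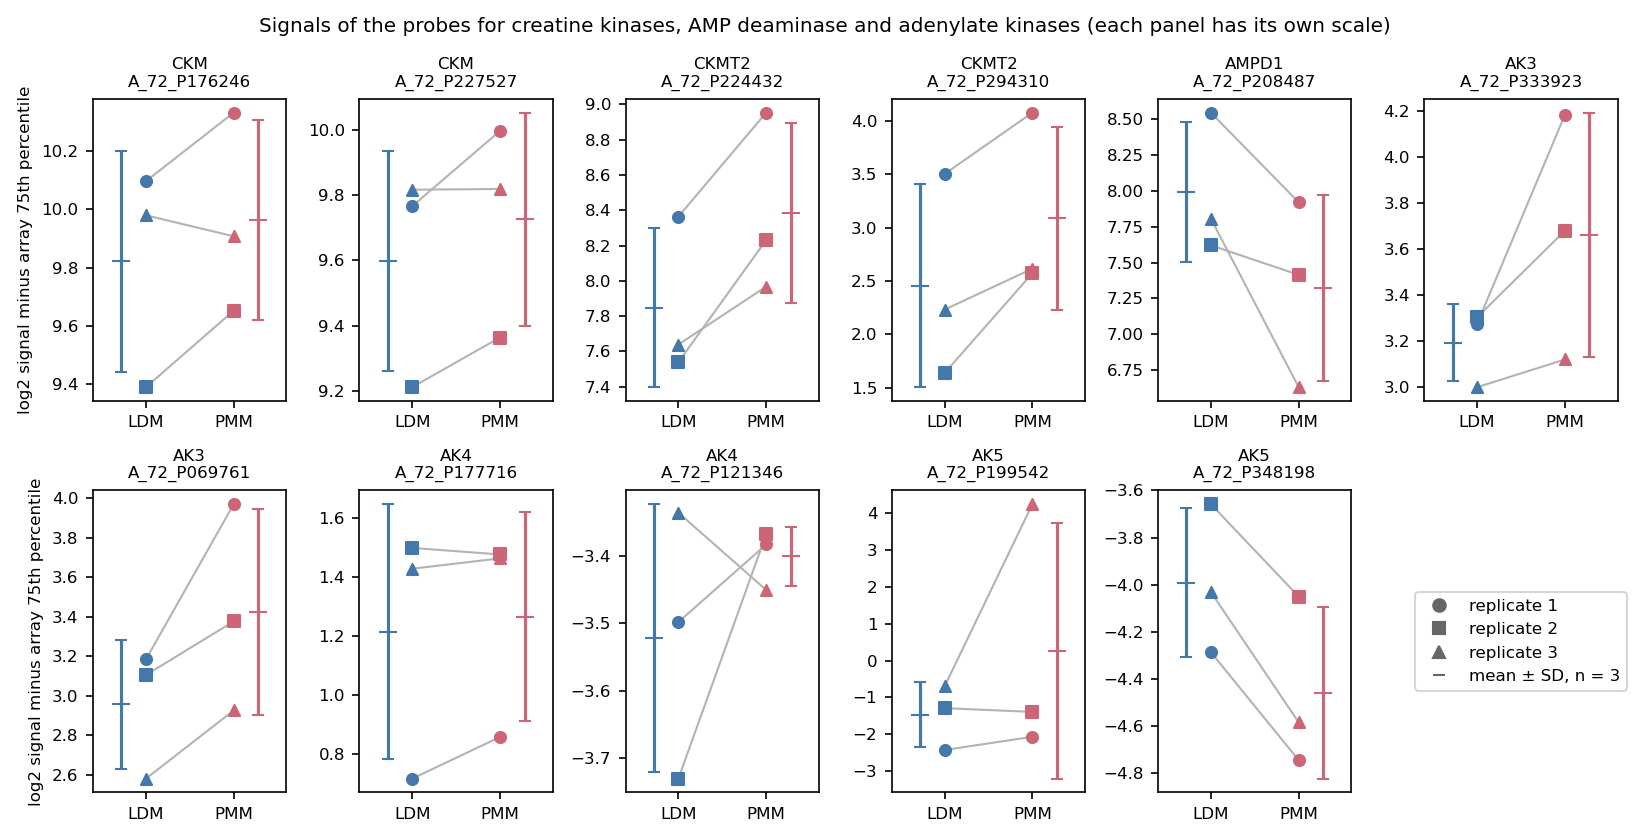
Log2 signal of each tested probe (y axis, log2 spot intensity minus the array's 75th percentile) in LDM and PMM, with marker shapes for replicates 1 to 3, grey lines joining arrays of the same number, and mean ± SD (n = 3) beside them. The CKMT2 lines all slope up to PMM, the AMPD1 lines all slope down, and AK5 probe A_72_P199542 is high on the array of PMM replicate 3 alone, at 4.25.

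To compare the mitochondrial with the cytosolic form, the CKM signal (A_72_P176246) was subtracted from the CKMT2 signal (A_72_P224432) on the same array, which removes any scaling of the array. Only the change of this difference between muscles has a meaning, not its level. The difference was -1.73, -1.85 and -2.34 in LDM, and -1.38, -1.42 and -1.94 in PMM. It was thus higher in PMM by 0.35, 0.43 and 0.40 for numbers 1, 2 and 3. These 3 values had an SD of 0.038, against an SD of 0.32 among the LDM arrays and 0.31 among the PMM arrays. The mean change was 0.39 log2 units, or 1.31-fold more CKMT2 signal per CKM signal in PMM than in LDM. The muscles overlapped because replicate 3 was low in both. By exact permutation p was 0.3, two-sided, and by an exact sign-flip test of the 3 numbers it was 0.25, the smallest p that test can give. Neither therefore passed 0.05.

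The other choices of probes gave 0.41, 0.49 and 0.50, each with all 3 numbers higher in PMM but with wider SDs over the numbers, of 0.11, 0.17 and 0.24. Of all probes set against CKM in this way, 9.52% were higher in PMM for all 3 numbers, and 0.98% were higher there without overlap, which CKMT2 was not. Settings that only rescale each array, such as median centring, cannot alter this difference and left the change at 0.39. Quantile normalization gave 0.35 and normexp background correction gave 0.47. Without single arrays the change ran from 0.21, without LDM replicate 3, to 0.57, without PMM replicate 3. In each of the settings that could alter it, CKMT2 was the side that was relatively higher in PMM.

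AMPD1 leaned the other way. Its log2 signal was 8.55, 7.62 and 7.81 in LDM and 7.92, 7.41 and 6.63 in PMM. The PMM array was below the LDM array for each number, with differences of -0.63, -0.21 and -1.17. The muscles overlapped, since PMM replicate 1 was above LDM replicates 2 and 3. The mean log2 difference was -0.67 (SE 0.42, n = 3 per muscle), with a 95% interval from -1.63 to 0.29. This is a 1.59-fold lower mean in PMM that did not pass limma (adjusted p = 1.0; 0.39 with the replicate number as a block). Exact permutation gave p = 0.3, two-sided. Leaving out single arrays moved the log2 difference between -0.97, without PMM replicate 1, and -0.32, without PMM replicate 3 (-0.39 without LDM replicate 1).

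Set against CKM, CKMT2 or AK3 on the same array, AMPD1 separated the muscles, whereas against AK4 or AK5 the muscles overlapped. These pairs of genes were looked at after the values were known and are given as a description. CKMT2 minus AMPD1 was -0.18, -0.08 and -0.17 in LDM, and 1.03, 0.82 and 1.34 in PMM. The lowest PMM value was thus well above the highest LDM value, and the mean change was 1.21 log2 units, or 2.31-fold. With the dimmer CKMT2 probe the change was 1.30, again without overlap.

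CKM minus AMPD1 was 1.55, 1.77 and 2.17 in LDM and 2.41, 2.24 and 3.28 in PMM, without overlap and with a mean change of 0.81. AMPD1 minus AK3 changed by -1.14 on the mean, so AK3 too was higher in PMM relative to AMPD1, without overlap. Of the 15 pairs among the 6 genes, these 3 were the pairs without overlap, and each holds AMPD1. Most of the array behaved in this way towards AMPD1: 70.3% of all probes were higher in PMM relative to AMPD1 for all 3 numbers, and 20.5% without overlap. Seen from CKM, AMPD1 was among the 3.58% of probes that were lower in PMM relative to CKM without overlap.

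**Figure D2:**
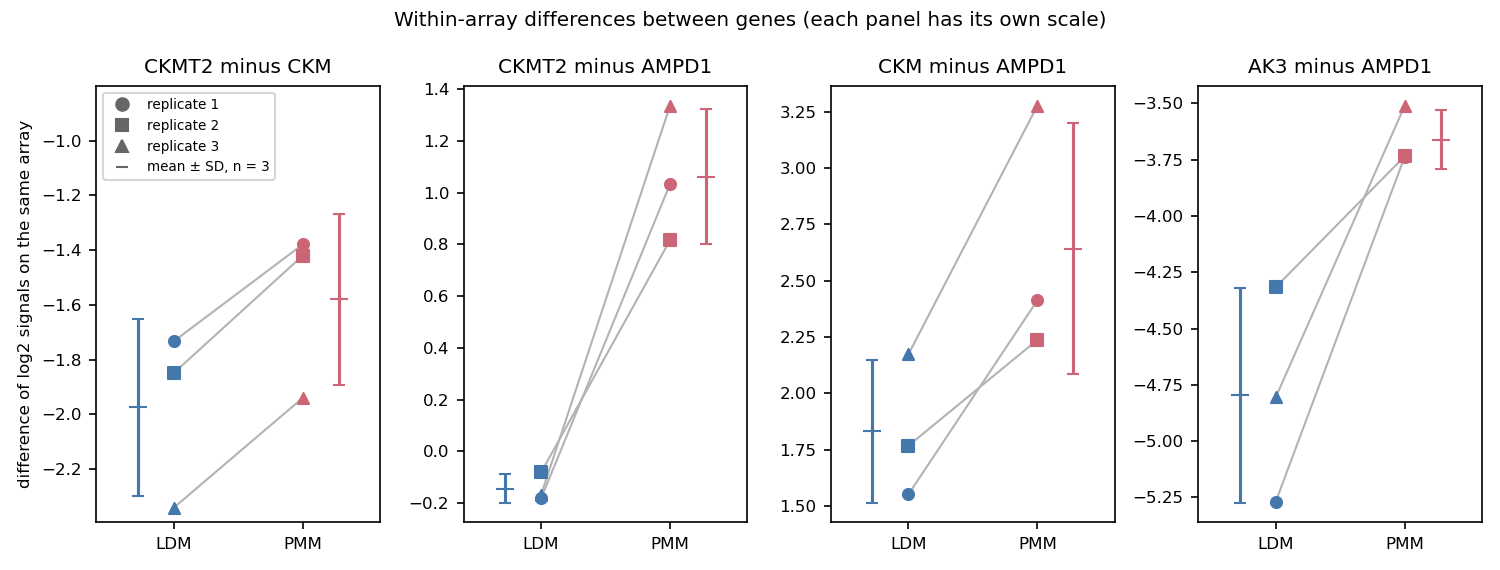
Difference of the log2 signals of a pair of genes on the same array (y axis, log2 units) in LDM and PMM, with lines joining arrays of the same number and mean ± SD (n = 3) beside them. CKMT2 minus CKM is 0.35 to 0.43 higher in PMM in each number although the muscles overlap, whereas the 3 differences against AMPD1 do not overlap between the muscles.

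The adenylate kinases with a probe were AK3 and AK4, of the mitochondrial matrix, and AK5. AK3, which uses GTP in place of ATP, leaned to PMM on both of its probes, which share at most 6 consecutive bases. Probe A_72_P333923 read 3.28, 3.30 and 3.00 in LDM and 4.18, 3.68 and 3.12 in PMM. Replicate 1 of PMM was the highest array, and PMM replicate 3 lay within the LDM range. The log2 difference was 0.47 (SE 0.35; limma adjusted p = 1.0). The second probe, A_72_P069761, ran from 2.58 to 3.18 in LDM and from 2.93 to 3.97 in PMM, with a log2 difference of 0.47 as well. Without PMM replicate 1 these differences were 0.21 (A_72_P333923) and 0.19 (A_72_P069761), and without PMM replicate 3 they were 0.74 and 0.72. Each PMM array was above the LDM array of its number on both probes.

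AK4, the other matrix enzyme, showed no direction. Probe A_72_P177716 read 0.72, 1.5 and 1.43 in LDM and 0.86, 1.48 and 1.46 in PMM. Its spread followed the replicate number, with number 1 lowest in both muscles, and the log2 difference was 0.05 (SE 0.35). The dimmer probe A_72_P121346 ran from -3.73 to -3.33 in LDM and from -3.45 to -3.37 in PMM, a log2 difference of 0.12 (SE 0.28). Its 95% interval, -0.53 to 0.77, leaves room for a difference of either sign. The array files print the older name AK3 for both of these probes, whereas their accession stands for AK4 in the current RefSeq table. The files name the AK3 probes only by a locus number.

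The AK5 probes disagreed. Probe A_72_P199542 read -2.43, -1.29 and -0.70 in LDM and -2.07, -1.39 and 4.25 in PMM. A single array, PMM replicate 3, was thus 30.8-fold brighter than the next, and it set the mean log2 difference of 1.73 (SE 1.44; limma adjusted p = 1.0). Without that array the difference was -0.26, so no direction is given for this probe. On the same array 188 of 43603 probes were more than 8-fold above the highest of the other 5 arrays, and 118 of them lay in the last 5 of its 85 columns. The AK5 spot was in column 84, and 23 of its 143 neighbours within 10 rows and 5 columns were raised in this way. For the other 11 of the 12 probes for kinases and deaminase, at most 5 neighbours were raised on any array. That array also had the most outlier spots, 161 against 6 to 37 on the others, but the AK5 spot was not among them. These counts were made after the value was seen, and their part in the result was not tested.

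Probe A_72_P348198, the dimmer probe for AK5, read -4.29, -3.66 and -4.03 in LDM and -4.74, -4.05 and -4.58 in PMM. It was lower in PMM for all 3 numbers, with differences from -0.55 to -0.39. The mean log2 difference was -0.47 (SE 0.33; limma adjusted p = 1.0). It was well above background on all 3 LDM arrays and 2 of the 3 PMM arrays. It was thus tested only through LDM, the muscle where its mean was higher. Normexp background correction, which shifted the median of all probes from -0.04 to 0.12, turned this difference to 0.37.

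Across the 11 tested probes, 9 had a higher mean in PMM and 2 a lower one (7 and 4 with normexp background correction). The 9 include the probes of CKM and AK4 and AK5 A_72_P199542, for which no direction is given above. The 2 were AMPD1 and AK5 A_72_P348198, and the latter was tested only through LDM. The median log2 difference of the 11 was 0.14, against -0.04 over all 25825 probes tested. limma called 0 of the 11, where 8 of all probes (0.031%) were called, and 0 of the 11 had an unadjusted p under 0.05. No probe of the 11 separated the muscles without overlap, whereas 5.94% of all probes with 6 values did. Of the 11 probes, 7 had 1 sign over all 3 numbers, where 35.8% of all probes with 6 values did. These 7 are not separate genes, as they include both probes of CKMT2 and both of AK3. They also include AK5 A_72_P348198, which passed the filter only through LDM. CKM A_72_P227527 is counted too, with 0.0023 for number 3, where the overlapping CKM probe gave -0.072.

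With the replicate number as a block, limma again called 0 of the 11, where 0.0658% of all probes were called, and the lowest adjusted p was 0.33. At an unadjusted p under 0.05 the block fit marked 5 of the 11 probes, where it marked 11.1% of all. These were both CKMT2 probes and 1 probe each of AMPD1, AK3 and AK5. The AK5 probe, A_72_P348198, passed the filter only through LDM, where its mean was higher, so its mark does not count towards that direction. The replicate number coincided with the day of the scan, and arrays 2 and 3 of both muscles each shared a slide, so the differences per number are also differences within a day and, for numbers 2 and 3, within a slide. The means of the 3 numbers spanned more than the muscle difference for all 11 probes. For CKM probe A_72_P176246 they spanned 0.69 log2 units against a muscle difference of 0.14. For AMPD1 they spanned 1.01 against -0.67.

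**Figure D3:**
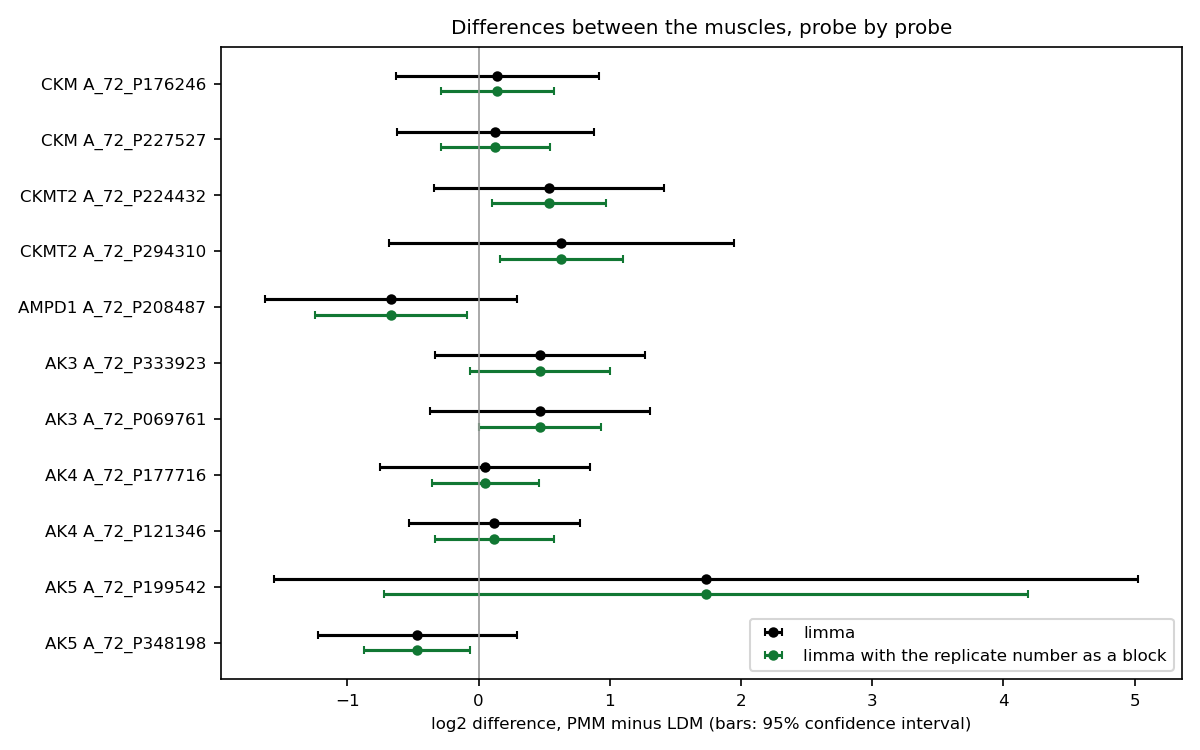
Log2 difference PMM minus LDM of each tested probe (x axis) with its 95% confidence interval from limma, without (black) and with (green) the replicate number as a block. All black intervals include 0, and with the block those of both CKMT2 probes, of AMPD1, of AK3 probe A_72_P069761 and of AK5 probe A_72_P348198 do not. This AK5 probe passed the filter only through LDM, where its mean was higher. The AK3 interval with the block starts at 0.00044, and that of the other AK3 probe includes 0.

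The wider pathway showed differences of the same modest size. Of 32 listed genes around creatine and adenine nucleotides, 16 had a tested probe. Of these, 9 had a higher and 7 a lower mean in PMM, with a median log2 difference of 0.06, but the counts were 8 and 8 with median centring and 6 and 10 with normexp background correction. limma called 0 of the 16 without and 0 with the block. At an unadjusted p under 0.05 the block fit marked 1 of the 16, NT5E, a share no larger than the 11.1% over all probes.

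Genes that carry ATP and ADP across the mitochondrial membranes all had higher means in PMM, 5 of 5 tested, with a median log2 difference of 0.27 and a range from 0.11 to 0.40, though with normexp background correction only 3 of the 5 did. They comprise the adenine nucleotide translocases SLC25A5 (0.27) and SLC25A6 and the porins of the outer membrane VDAC1 (0.32), VDAC2 (0.40) and VDAC3. VDAC1 and VDAC2 were higher for all 3 numbers, and the other three were not. No probe was matched to SLC25A4, the main translocase of muscle. None of these passed limma, with a lowest adjusted p of 0.57 with the block.

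In the purine nucleotide cycle, which refills AMP from the IMP that AMPD1 makes, and in IMP synthesis, all 3 tested genes had lower means in PMM. These were the muscle adenylosuccinate synthetase ADSSL1 (-0.26), its relative ADSS (-0.18) and ATIC (-0.12), which completes IMP. None had the same sign in all 3 numbers. ADSSL1 read 7.88, 6.78 and 7.29 in LDM and 7.72, 6.91 and 6.53 in PMM, so the muscles overlapped, with only PMM replicate 3 below the LDM range.

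Among the genes of AMP breakdown and salvage, 3 had higher and 4 had lower means. The counts were 4 and 3 with the percentile over probes well above background on all arrays, and 2 and 5 with normexp background correction. NT5E, the surface enzyme that cleaves AMP to adenosine, differed most. Its log2 signal was 1.34, 2.52 and 3.12 in LDM and 0.92, 1.68 and 2.06 in PMM. It was lower in PMM for all 3 numbers, at -0.42, -0.83 and -1.06, and the mean difference was -0.77 (SE 0.50; limma adjusted p = 1.0, 0.27 with the block). Next came PNP, which splits inosine, at 0.29, and GMPR, which turns GMP into IMP, at -0.20. For creatine supply only GATM, the first enzyme of creatine synthesis, had a probe, and it differed by 0.02 (-0.04 with median centring).

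**Figure D4:**
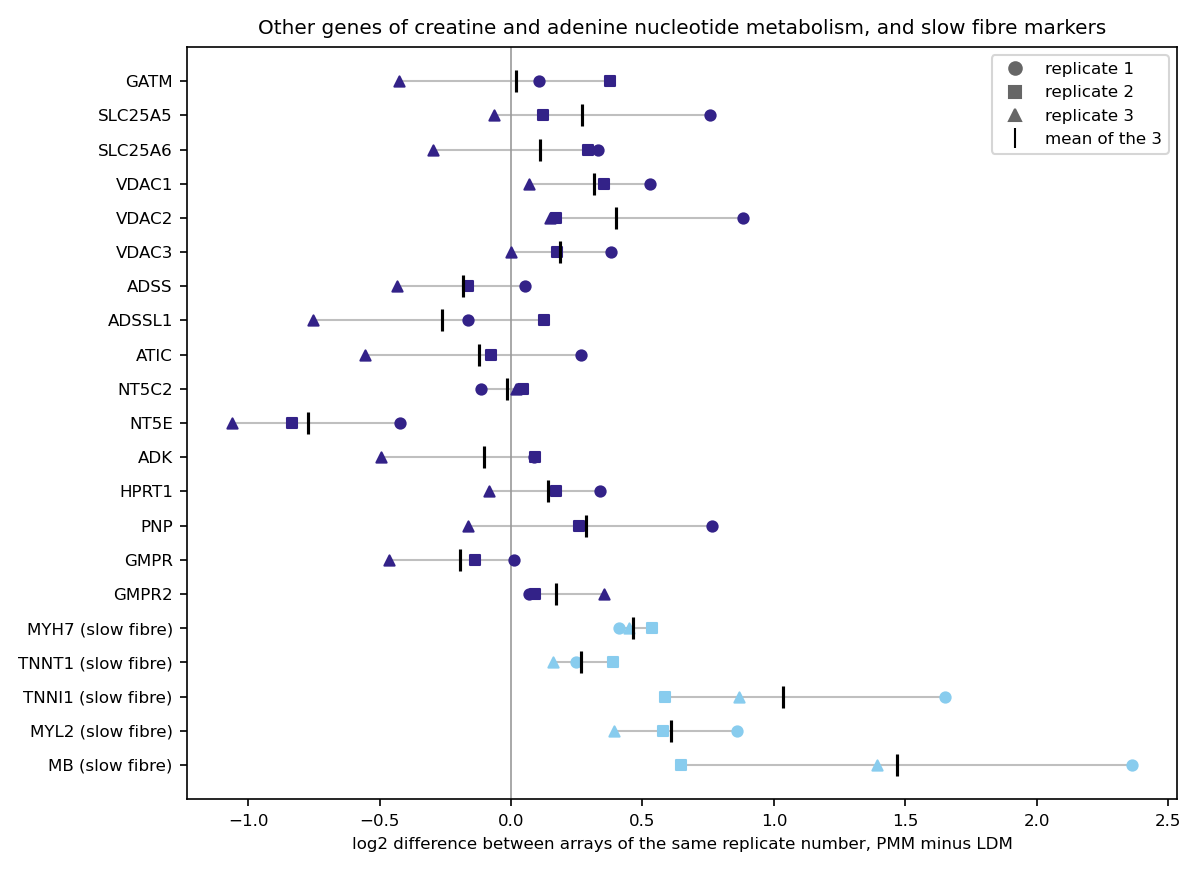
Log2 difference PMM minus LDM between arrays of the same replicate number (x axis; marker shapes for numbers 1 to 3, black ticks for their mean) for the 16 tested pathway genes and the 5 slow fibre markers. The translocase and porin means lie between 0.11 and 0.40 (only 3 of these 5 above 0 with normexp background correction), NT5E lies below 0 in all 3 numbers, and all slow fibre points lie above 0.

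The named genes whose signals moved most like each enzyme across the 6 arrays were then listed, by the root mean square difference of centred log2 signals among 4056 candidate probes. For CKM these were DES, the intermediate filament desmin (0.049), NPW, a neuropeptide (0.052), and ADAM9, a membrane protease (0.061). The CKM signal was highest on PMM replicate 1, the array with the lowest 75th percentile. It was lowest on LDM replicate 2, the array with the highest 75th percentile. How far this scaling of the arrays shaped the list for CKM was not tested. Those nearest to CKMT2 were SDHA, a succinate dehydrogenase subunit (0.080), SUCLG2, a succinyl-CoA ligase subunit (0.099), and ACADSB, an acyl-CoA dehydrogenase (0.10). For comparison, the CKMT2 signal itself ranged over 1.41 log2 units. Like CKM, it was highest on PMM replicate 1 and lowest on LDM replicate 2. How far the scaling of the arrays shaped the list for CKMT2 was not tested either. Nearest to AMPD1 were CCDC6 (0.11), PDLIM3, a protein of the Z-disc (0.12), and TMEM5 (0.12). The points share 6 arrays and the spread between replicate numbers, so these are descriptions without a test.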

How the data were processed

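Total RNA of LDM and PMM was measured on 6 single-colour Agilent arrays, 3 per muscle. The authors deposited linear spot intensities from Agilent Feature Extraction 10.5.1.1, corrected for local background and for trends across the slide but not normalized between arrays. The series' value table differed from these intensities by 0.005 at most. The authors named the MultiExperiment Viewer for differential expression; their normalization and exact test are not given in the sources used here.

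Control spots and outlier spots were left out. From the log2 intensity of each probe, averaged where it had repeat spots, log2 of the array's 75th percentile (595 to 883 intensity units) was subtracted. Between 58.5% and 72.4% of spots per array were well above background and 0 were saturated. The number of arrays limits the precision. The test took probes well above background on every array of LDM or of PMM, with 2 or more values in each. PMM was compared with LDM by limma 3.58.1 in R 4.3.3, two-sided, with Benjamini-Hochberg adjustment over all tested probes and a threshold of 0.05. Single values were compared by exact permutation (SciPy 1.17.1). The fit was also run on data simulated with normal noise, which does not test its assumptions on these arrays. Alternatives were other normalizations, background correction, filters, probes and blocks, and leaving out single arrays.

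In all, 5190 probes had a gene name, first by RefSeq accession or gene number in the Sscrofa11.1 table and otherwise by the array files. For a gene with several probes the brightest stood for it in the pathway, marker and within-array comparisons. From the pathway list, the 3 genes of each group with the largest absolute difference were named. The genes, lists and tests were chosen with earlier results of these data known.

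Labels give both muscles of 3 pigs, but not which pig a replicate number belongs to. Deviations from the muscle means correlated at 0.62, 0.70 and 0.56 between arrays of numbers 1, 2 and 3, and between -0.54 and -0.01 across numbers. The deviations of a muscle cancel out for each probe, so the negative values across numbers follow in part from the positive ones and are no separate evidence. Every same-number value was above 0.1. Arrays of 1 number were therefore treated as pairs in the differences per number, the sign-flip test and the replicate block. The reported limma fit, with its SEs and confidence intervals, and the exact permutation left this pairing out. The SE was smaller with the block for each tested kinase and deaminase probe, as for CKMT2 probe A_72_P224432 (0.17 against 0.38). If numbers are not pigs, p-values measure only the spread between these samples, which may be technical.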

Additional observations from a re-analysis of the deposited data

How the results depend on the processing

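Of the tested probes for the kinases and the deaminase, 0 were called in the reported fit and under every alternative except 1, as were 0 genes of the pathway list. That exception, chosen after seeing the data, was the replicate block without replicate 1, which called 1 of the probes, AK5 A_72_P199542 (log2 2.42, adjusted p = 4.7e-05), and 1 pathway gene, NT5E (log2 -0.95, adjusted p = 0.034). Over all probes, the count of 8 called was 17 with the replicate block as the pairing of arrays, 300 with the slide as a random block, 1 with normexp, and 0 with the percentile over probes well above background on all arrays, with outlier spots kept, without a filter, and with the value table. Without single arrays it ranged from 0 to 1. The block with quantile normalization called 0, and without replicate 1, 2 or 3 it called 802, 1 and 0. The cause of these shifts was not tested.

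CKMT2 and AMPD1 kept their direction under every alternative, as did AK3. With normexp, CKM turned to -0.12 (A_72_P176246) and -0.044 (A_72_P227527), AK5 A_72_P348198 to 0.37 and AK4 A_72_P177716 to -0.00020; median centring gave -0.0058 for the last. Without single arrays CKM ranged from -0.074 to 0.30 (A_72_P176246) and from -0.065 to 0.31 (A_72_P227527), AK4 A_72_P177716 from -0.20 to 0.26 and AK5 A_72_P199542 from -0.26 to 2.90. The 3 arrays per muscle limit the precision to the 95% intervals given above.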
